A study of Homo sapiens with 3 samples.

Results

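The 41 genes described here are interferon-stimulated genes and sensors of foreign RNA, a list given by name and found in full among the 48162 Ensembl genes of the deposited tables. By role they comprise 26 effectors, 7 RNA sensors and 8 genes of signalling and transcription. The cells were MDA-MB-231, an established human triple-negative breast cancer line, and 1 RNA library was sequenced for each of 3 cultures, a Geminin and FoxO3 co-depletion, a FoxO3 depletion and a control. Per the labels, all cultures grew in medium with 10% fetal bovine serum, were exposed to lentivirus for 24 h and were harvested 72 h after the medium was changed. The labels name neither the depletion sequences nor the vector of the control. Each group is 1 culture, so every difference below is between 2 libraries, has no replicate check and carries no p-value. In bulk RNA, fewer cells that express a gene and less RNA per cell cannot be told apart.

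Type I and type III interferons bind receptors that activate the kinases JAK1 and TYK2, which phosphorylate STAT proteins. STAT2 and IRF9 are part of the complex ISGF3, which binds the interferon-stimulated response element (ISRE) in the promoters of interferon-stimulated genes. The helicases RIG-I (DDX58) and MDA5 (IFIH1) recognise viral RNA in the cytosol and signal through MAVS to the kinase TBK1 and to IRF3, which induces interferon and some of the same genes directly.

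The labels were checked first. FOXO3 was at 2.94 FPKM (fragments per kilobase, adjusted for library size) in the co-depletion and 2.79 in the FoxO3 depletion, against 12.2 in the control. GMNN, which encodes Geminin, was at 37.0 FPKM in the co-depletion, 112.2 in the FoxO3 depletion and 112.3 in the control. Sequencing depth, inferred from the smallest steps between values, was 12267332 reads in the co-depletion, 10760613 in the FoxO3 depletion and 14507410 in the control. VIM, CD44, ANXA1, AXL, MET and EGFR, known in this line, all exceeded 1 FPKM in every library, and ESR1, PGR and the HEK293 markers LIN28B, POU3F2 and NEFM did not in any. CDH1 reached 1.02 FPKM in the FoxO3 depletion, with 0.58 in the co-depletion and 0.42 in the control. ERBB2 and EPCAM, listed like CDH1, ESR1 and PGR as low in this line, were at 46.8 and 8.95 FPKM in the co-depletion, 41.6 and 9.80 in the FoxO3 depletion and 38.0 and 13.7 in the control. Of 12 leukocyte markers 3 reached 1 FPKM in each library, CD14, CSF1R and LAPTM5, while CD3E, MS4A1, CD68, NKG7 and CLEC4C were listed at 0 throughout. The markers summed to 67.7 FPKM in the co-depletion, 69.3 in the FoxO3 depletion and 77.9 in the control.

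The interferon genes themselves were near the detection limit. IFNB1, the interferon that most infected cells secrete first, was listed at 0 in all 3 libraries, and the floor of 3 reads used for a count of 0 would be 0.28 FPKM in the co-depletion, 0.32 in the FoxO3 depletion and 0.24 in the control. IFNA1, IFNE and IFNG were likewise at 0, and IFNA2 and IFNK had 1 read each, IFNA2 in the FoxO3 depletion and IFNK in the control. IFNL1, a type III interferon, was at 1.33 FPKM in the co-depletion, which is 14 reads with an exact Poisson interval of 7.65 to 23.5, and it was listed at 0 in both other libraries. The IFNL1 level in the co-depletion was 4.09-fold that of the 3-read floor in the FoxO3 depletion and 5.52-fold that of the floor in the control. These folds are not lower bounds. They leave out the counting error of its own 14 reads, and the upper Poisson limit of 0 reads is 3.69. IFNL3 was at 0.50 FPKM in the co-depletion, 0.28 in the FoxO3 depletion and 0 in the control, and IFNL2, its near-identical copy, at 0.11, 0 and 0. The IFNL3 values rested on 2 and 1 recovered reads, or 4 and 2 by its annotated length, and that of IFNL2 on 1. The counting interval of IFNL3 between the 2 depleted libraries was 0.09 to 103.5, so no order can be read from it. IFNL1, IFNL2 and IFNL3 lie below the mean of 1 FPKM required of named pathway genes and were singled out after their values were seen.

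The whole group was detected, although the labels name no interferon treatment. All 41 members had reads in every library, and 31 of them had at least 100 in each. Their FPKM summed to 2470 in the co-depletion, 2233 in the FoxO3 depletion and 1894 in the control, or 0.343%, 0.311% and 0.27% of all FPKM. ISG15, IFITM3 and BST2 were the 3 most abundant members in each library. IRF9, at 0.92 FPKM in the co-depletion, 1.16 in the FoxO3 depletion and 0.78 in the control, was the lowest and rested on 10, 11 and 10 reads. Its mean was below 1 FPKM, the minimum used for ratios, so the ratios below cover 40 members.

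**Figure D1:**
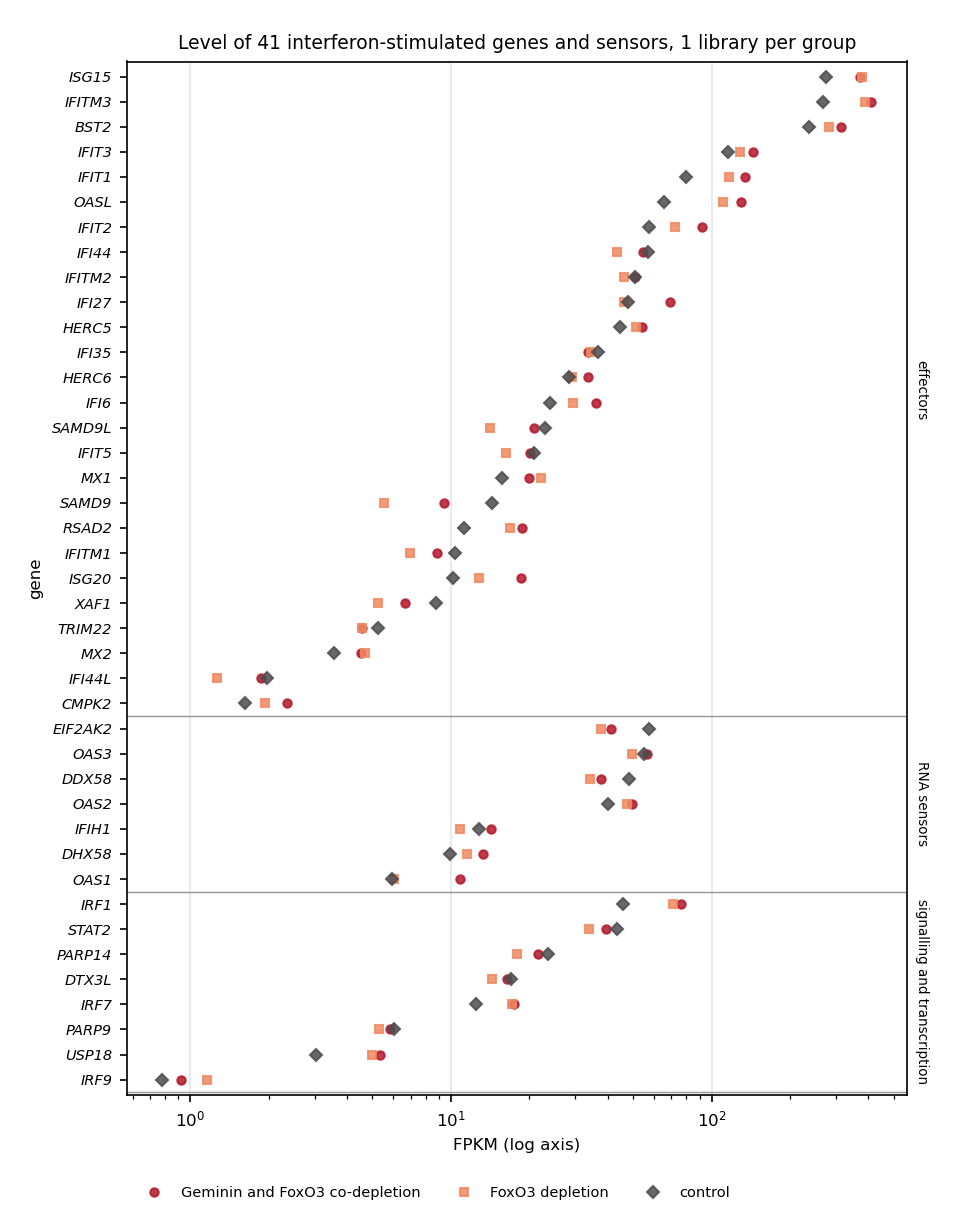
FPKM (log axis) of the 41 members in the co-depletion (circles), FoxO3 depletion (squares) and control (diamonds), 1 library each, grouped by role and ordered by the control level. Levels span from 0.78 FPKM for IRF9 in the control to 410.4 for IFITM3 in the co-depletion, and for most genes the 3 libraries lie close together against that span.

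Promoter windows of 300 bases, from 250 before to 50 after the annotated start (RefSeq, GRCh38.p14), were found for 32 of the 41 members. IFIT2, IFITM2, MX2, OASL, TRIM22, DHX58, OAS2, IRF7 and USP18 had no entry. The ISRE core was searched as GAAA, any 2 bases and GAAA, the interferon gamma-activated site (GAS) as TTCNNNGAA and the forkhead site, which FoxO factors can bind, as GTAAACA, each on both strands. An ISRE match lay in 26 of 42 member windows (61.9%), against 3.57% of all 35116 windows. GAS matches lay in 10 of the 42 (23.8%), against 7.66% of all windows, and can share bases with an ISRE match, as in BST2. Forkhead matches lay in 2 of the 42 (4.76%), those of SAMD9L and CMPK2, against 3.42% of all. The windows below belong to members past 1.5-fold in a comparison with the control that have a motif match. They show that an ISRE match lay in windows of genes that were higher and of genes that were lower, as called without adjustment for GC content. XAF1, lower at 1.5-fold in the FoxO3 depletion, has windows without a match of any of these motifs and is not printed. Each is written 5′ to 3′ on the gene's strand, with motif matches in capitals. The first 4 belong to genes higher in the co-depletion and hold ISRE matches, and SAMD9 and EIF2AK2, lower in the FoxO3 depletion, hold them too. SAMD9L, also lower there, holds the forkhead match. OAS1 and IRF1, higher in the co-depletion, match the GAS pattern alone. The OAS1 window also holds gaaacgaaa, whose closer spacing the ISRE pattern misses. After the GC adjustment described below, the log2 ratios of SAMD9 (-0.46), EIF2AK2 (-0.12) and SAMD9L (-0.09) in the FoxO3 depletion no longer passed 1.5-fold. Nor did that of IFITM3 in the co-depletion, at 0.51.
IFIT1, chr10:89392373-89392672, plus strand: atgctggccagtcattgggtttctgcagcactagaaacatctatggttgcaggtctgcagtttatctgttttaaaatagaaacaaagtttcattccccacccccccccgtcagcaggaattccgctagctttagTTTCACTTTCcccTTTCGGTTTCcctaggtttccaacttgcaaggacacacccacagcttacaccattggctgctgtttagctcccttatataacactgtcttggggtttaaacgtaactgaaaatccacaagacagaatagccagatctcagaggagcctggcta
IFITM3, chr11:320811-321110, minus strand: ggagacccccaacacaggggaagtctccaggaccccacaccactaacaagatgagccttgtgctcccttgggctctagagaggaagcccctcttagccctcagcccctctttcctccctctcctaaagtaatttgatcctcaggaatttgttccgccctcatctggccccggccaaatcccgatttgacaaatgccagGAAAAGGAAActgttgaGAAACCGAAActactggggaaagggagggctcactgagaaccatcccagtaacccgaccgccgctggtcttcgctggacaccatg
ISG20, chr15:88638766-88639065, plus strand: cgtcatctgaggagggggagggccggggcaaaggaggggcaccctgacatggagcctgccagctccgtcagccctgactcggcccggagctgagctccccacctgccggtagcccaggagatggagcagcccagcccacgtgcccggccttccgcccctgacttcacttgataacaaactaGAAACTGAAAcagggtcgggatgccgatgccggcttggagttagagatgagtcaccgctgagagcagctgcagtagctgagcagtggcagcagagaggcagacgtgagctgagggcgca
RSAD2, chr2:6877527-6877826, plus strand: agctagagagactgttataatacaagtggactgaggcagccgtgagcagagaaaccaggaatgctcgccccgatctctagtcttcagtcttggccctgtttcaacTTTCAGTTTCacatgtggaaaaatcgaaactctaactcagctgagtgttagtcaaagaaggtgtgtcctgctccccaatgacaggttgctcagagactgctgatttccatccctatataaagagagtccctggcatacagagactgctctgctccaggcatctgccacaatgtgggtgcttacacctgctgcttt
SAMD9, chr7:93117930-93118229, minus strand: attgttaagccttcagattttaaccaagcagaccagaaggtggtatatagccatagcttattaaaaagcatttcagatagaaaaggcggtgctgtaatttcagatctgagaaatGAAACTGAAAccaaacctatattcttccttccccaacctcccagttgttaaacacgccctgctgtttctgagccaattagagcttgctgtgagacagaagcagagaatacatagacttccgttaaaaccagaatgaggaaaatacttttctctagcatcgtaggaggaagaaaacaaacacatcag
EIF2AK2, chr2:37156931-37157230, minus strand: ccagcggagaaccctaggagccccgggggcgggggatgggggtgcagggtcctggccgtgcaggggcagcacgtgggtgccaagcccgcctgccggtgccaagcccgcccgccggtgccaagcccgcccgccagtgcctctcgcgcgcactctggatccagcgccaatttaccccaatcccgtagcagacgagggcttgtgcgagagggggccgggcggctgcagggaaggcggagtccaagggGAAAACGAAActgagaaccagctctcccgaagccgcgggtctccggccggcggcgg
OAS1, chr12:112906712-112907011, plus strand: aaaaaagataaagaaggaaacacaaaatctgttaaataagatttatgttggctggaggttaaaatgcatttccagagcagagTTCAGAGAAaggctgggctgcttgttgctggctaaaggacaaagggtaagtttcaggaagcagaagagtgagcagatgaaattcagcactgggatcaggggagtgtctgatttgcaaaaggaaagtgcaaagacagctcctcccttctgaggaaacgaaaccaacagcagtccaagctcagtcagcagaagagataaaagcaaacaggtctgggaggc
IRF1, chr5:132490724-132491023, minus strand: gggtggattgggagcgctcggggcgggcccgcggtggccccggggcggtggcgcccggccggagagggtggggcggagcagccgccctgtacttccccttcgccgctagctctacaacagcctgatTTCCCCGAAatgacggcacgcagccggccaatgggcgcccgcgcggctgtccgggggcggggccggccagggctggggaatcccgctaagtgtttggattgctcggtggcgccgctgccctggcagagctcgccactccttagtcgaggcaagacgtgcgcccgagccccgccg
SAMD9L, chr7:93148336-93148635, minus strand: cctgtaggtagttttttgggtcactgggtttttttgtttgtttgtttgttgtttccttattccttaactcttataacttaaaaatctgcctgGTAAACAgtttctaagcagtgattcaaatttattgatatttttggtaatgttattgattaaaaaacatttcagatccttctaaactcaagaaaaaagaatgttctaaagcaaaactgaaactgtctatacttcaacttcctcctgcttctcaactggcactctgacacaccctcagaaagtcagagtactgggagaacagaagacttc
In IFIT1 the ISRE matches begin 116 and 103 bases before the start, in IFITM3 52 and 35 bases before it. The match of EIF2AK2 spans the start, beginning 6 bases before it. For RSAD2 the window shown is 1 of 2.

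The FoxO3 depletion was compared with the control first. Members lay on both sides of the control, with 21 of 40 members above the control and 19 below it. Of all 12649 analysed genes 5425 were above it. The members' median log2 ratio was 0.03 on the FPKM + 1 scale, against -0.07 for all analysed genes. After rescaling to TPM that median was -0.00. At 1.5-fold on the FPKM + 1 scale 2 members were higher, OASL and IRF1, where 4% of all genes were. On that scale 4 were lower, SAMD9, SAMD9L, XAF1 and EIF2AK2, where 16.7% of all genes were. The unscaled share of members higher was near that of all genes, and the share lower was below it. After rescaling by the median ratio of all genes, 6 members were higher, where 5.8% of all genes were, and 1 was lower, where 14.2% were.

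The co-depletion was then compared with the same control library. Of 40 members 24 were above the control and 16 below it, where 5527 of all 12649 analysed genes were above it. The members' median log2 ratio was 0.28, against -0.06 for all analysed genes. At 1.5-fold 9 members were higher, IFIT1, IFIT2, IFITM3, OASL, RSAD2, ISG20, OAS1, IRF1 and USP18, where 4.02% of all genes were. No member was lower at 1.5-fold, 0 of 40 where 12.3% of all genes were, although SAMD9 passed it after rescaling to TPM, at -0.60. Both counts are on the FPKM + 1 scale. By plain FPKM ratio SAMD9 (0.66) also passed 1.5-fold downward and IFI6 (1.51) upward. None of the members reached 2-fold upward in either comparison with the control, OASL coming closest at an FPKM ratio of 1.98 in the co-depletion.

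**Figure D2:**
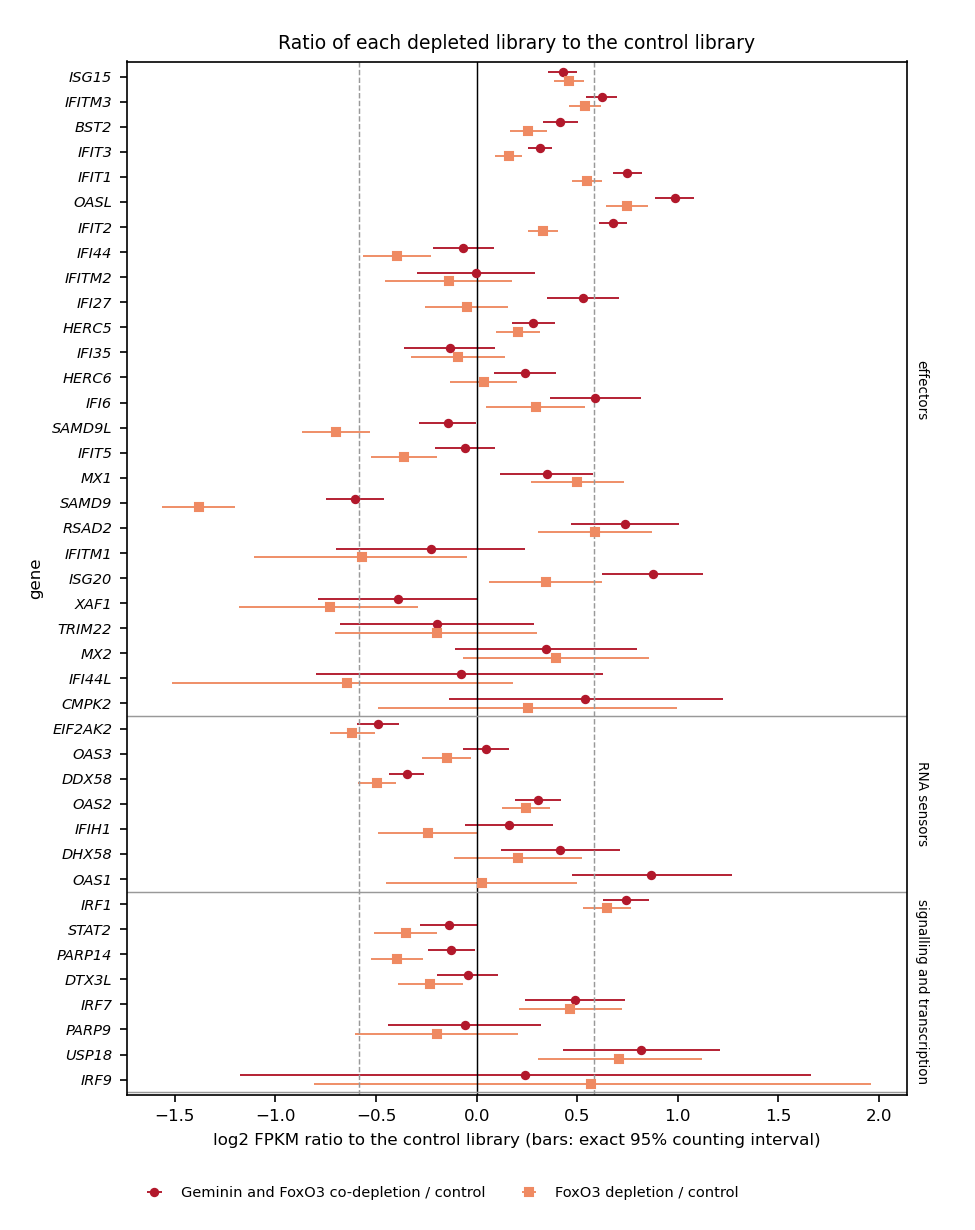
log2 FPKM ratio to the control library for each member in the co-depletion (circles) and the FoxO3 depletion (squares). Bars are exact 95% intervals for counting error between 2 libraries, dashed lines mark 1.5-fold, and both ratios share the control. The ratios shown are of plain FPKM, while members were called on the FPKM + 1 scale, so some cross a dashed line uncalled. OASL, IFIT1 and IRF1 lie to the right of 0 in both, SAMD9 and EIF2AK2 to the left.

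The IFIT proteins bind viral RNA or the translation factor eIF3, and their genes lie together on chromosome 10. IFIT1, which binds RNA that lacks 2′-O-methylation on its cap, was at 134.2 FPKM in the co-depletion and 116.9 in the FoxO3 depletion, against 79.9 in the control. The control was the lowest of the 3, and the FPKM ratios to it were 1.68 (95% counting interval 1.60 to 1.77) in the co-depletion and 1.46 (1.39 to 1.54) in the FoxO3 depletion. IFIT2 was at 91.9 FPKM in the co-depletion and 72.3 in the FoxO3 depletion, against 57.5 in the control, with ratios of 1.60 (1.52 to 1.68) and 1.26 (1.19 to 1.32). For IFIT3, the partner that stabilises IFIT1, the levels were 143.9 and 129.2 FPKM, against 115.7 in the control. IFIT5 was at 20.1 FPKM in the co-depletion, 16.3 in the FoxO3 depletion and 20.9 in the control, and its log2 ratios of -0.06 in the co-depletion and -0.34 in the FoxO3 depletion turned to 0.49 and 0.41 after adjustment for GC content, in which the median ratio of all genes at the same transcript GC content is subtracted. LIPA, a lipase gene annotated over IFIT1, IFIT2 and IFIT3 on the other strand, was at 95.1, 100.6 and 81.8 FPKM, and since no source used here states the strand setting, reads of LIPA cannot be told from theirs where they overlap. In all, 12 members overlap another annotated gene at 1 FPKM or more, among them IRF1 with C5orf56 and EIF2AK2 with GPATCH11.

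Within the set of GTPases, nucleases and other antiviral proteins, OASL had the largest ratio to the control of the whole group. OASL, an OAS-like protein that enhances RIG-I signalling, was at 129.9 FPKM in the co-depletion and 110.2 in the FoxO3 depletion, against 65.6 in the control. Its ratios were 1.98 (1.85 to 2.12) and 1.68 (1.56 to 1.80). ISG20, a 3′ to 5′ exonuclease, stood at 18.6 FPKM in the co-depletion and 12.9 in the FoxO3 depletion, against 10.1 in the control, giving 1.83 (1.54 to 2.18) and 1.27 (1.04 to 1.54). RSAD2 encodes viperin, which makes a chain-terminating nucleotide from CTP, and was at 18.7 and 16.9 FPKM against 11.2, with ratios of 1.67 (1.38 to 2.01) and 1.5 (1.24 to 1.83). CMPK2, the neighbouring gene of RSAD2 that overlaps it on the other strand, was lower per length, at 2.36 and 1.94 FPKM against 1.62. MX1, a dynamin-like GTPase that blocks influenza virus, stood at 19.9 FPKM in the co-depletion and 22.1 in the FoxO3 depletion, against 15.6 in the control. MX2 was at 4.51 and 4.67 FPKM against 3.55. All 6 genes of this set were above the control in each comparison. The gene lists were chosen with earlier results of these data known, and both comparisons share the control. Of all 12649 analysed genes 5527 were above it in the co-depletion and 5425 in the FoxO3 depletion. The set's median log2 ratio was 0.52 in the co-depletion and 0.40 in the FoxO3 depletion. In each comparison the counting interval lay wholly above 1 for 4 of the 6, and the intervals of CMPK2 and MX2 included 1.

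Small membrane and other IFI proteins divided. IFITM3, which blocks fusion of virus with endosomes, was at 410.4 FPKM in the co-depletion and 387.2 in the FoxO3 depletion, against 266.9 in the control, with ratios of 1.54 (1.46 to 1.62) and 1.45 (1.37 to 1.53). Its close copies did not show this. IFITM2 was at 50.8 FPKM in the co-depletion, 46.3 in the FoxO3 depletion and 50.9 in the control, and IFITM1 at 8.84, 6.97 and 10.3. The 3 genes are similar in sequence and IFITM1 and IFITM2 overlap, so the division of reads among them is uncertain. The length behind the IFITM2 level appeared to be 287 bases or a multiple of it, so its level cannot be set against the others. BST2 (tetherin), which holds budding virus at the cell surface, was at 315.3 and 282.3 FPKM against 236.2 in the control. IFI27, a mitochondrial protein, was higher in the co-depletion alone by its interval, at 69.1 FPKM there and 46.3 in the FoxO3 depletion, against 47.9 in the control, with ratios of 1.44 (1.28 to 1.63) and 0.97 (0.84 to 1.11). IFI6 was at 36.1 and 29.4 FPKM against 24.0, while IFI35 stayed at 33.4 and 34.4 against 36.7. IFI44 was at 54.5 FPKM in the co-depletion and 43.4 in the FoxO3 depletion, against 57.0 in the control, and its log2 ratio in the FoxO3 depletion turned from -0.39 to 0.27 after adjustment for GC content. IFI44L, at 1.86, 1.26 and 1.97 FPKM, rested on 32, 19 and 40 reads.

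ISG15, a ubiquitin-like protein that is joined to other proteins, was at 370.2 FPKM in the co-depletion and 378.7 in the FoxO3 depletion, against 275.2 in the control. Its ratios of 1.35 (1.28 to 1.42) and 1.38 (1.31 to 1.45) were within counting error of each other. HERC5, the ligase that attaches ISG15 in human cells, was at 54.0 and 51.2 FPKM against 44.4, and HERC6 at 33.7 and 29.2 against 28.5.

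Among effectors, the restriction and death factors SAMD9, SAMD9L and XAF1 had the lowest ratios in the FoxO3 depletion. In the co-depletion SAMD9 and XAF1 were lowest, and IFITM1 lay below SAMD9L and TRIM22. After adjustment for GC content, the effectors lower at 1.5-fold in the FoxO3 depletion were XAF1 and IFITM1. SAMD9, which restricts poxviruses, was at 9.44 FPKM in the co-depletion and 5.52 in the FoxO3 depletion, against 14.4 in the control. Its ratios were 0.66 (0.60 to 0.73) and 0.38 (0.34 to 0.44), so the 3 libraries were separated beyond counting error. SAMD9L, its paralogue and neighbour on chromosome 7, was at 20.8 FPKM in the co-depletion and 14.2 in the FoxO3 depletion, against 23.0 in the control, with ratios of 0.91 (0.82 to 0.999) and 0.62 (0.55 to 0.69). XAF1, a pro-apoptotic partner of XIAP, was at 6.68 and 5.27 FPKM against 8.75. TRIM22, a ubiquitin ligase, was at 4.58 and 4.57 FPKM against 5.24, with 65 and 57 reads against 88, and both intervals included 1.

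RNA sensors lay on both sides of the control. EIF2AK2 (PKR), which halts translation when it binds double-stranded RNA, was at 41.2 FPKM in the co-depletion and 37.7 in the FoxO3 depletion, against 57.8 in the control, with ratios of 0.71 (0.66 to 0.77) and 0.65 (0.60 to 0.70). DDX58 was also lower than the control, at 37.8 and 34.1 FPKM against 48.1, with ratios of 0.79 (0.74 to 0.84) and 0.71 (0.66 to 0.76). IFIH1 was at 14.3 FPKM in the co-depletion and 10.8 in the FoxO3 depletion, against 12.8 in the control, and both intervals reached 1. DHX58 (LGP2), a regulator of the other helicases, was at 13.3 and 11.5 FPKM against 9.95. OAS1, which makes the 2′-5′ oligoadenylate that activates RNase L, was at 10.8 FPKM in the co-depletion and 6.04 in the FoxO3 depletion, against 5.93 in the control. The co-depletion stood apart, with a ratio of 1.83 (1.39 to 2.41) to the control, while the FoxO3 depletion was at 1.02 (0.73 to 1.41). OAS2 was at 49.3 and 47.3 FPKM against 39.9, and OAS3 at 56.7 and 49.6 against 54.9. The median log2 ratio of the 7 sensors was 0.15 in the co-depletion and -0.15 in the FoxO3 depletion, or 0.29 and 0.02 after adjustment for GC content.

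In signalling and transcription, IRF1 and USP18 were higher than the control and STAT2 was lower or level. IRF1, a transcription factor induced by interferon gamma and by NF-kB, was at 76.3 FPKM in the co-depletion and 71.4 in the FoxO3 depletion, against 45.6 in the control, with ratios of 1.67 (1.55 to 1.81) and 1.57 (1.44 to 1.70). USP18, which removes ISG15 and blocks signalling at the receptor subunit IFNAR2, and whose reads may be shared with its near-identical copy USP41, was at 5.36 and 4.98 FPKM against 3.04, with ratios of 1.76 (1.35 to 2.31) and 1.64 (1.23 to 2.17). IRF7, the amplifier of interferon genes, was at 17.5 and 17.2 FPKM against 12.5. STAT2 stood at 39.3 FPKM in the co-depletion and 33.9 in the FoxO3 depletion, against 43.3 in the control. The ligase DTX3L and its partner PARP9, which modify histones, were at 16.4 and 14.4 FPKM against 16.9 and at 5.82 and 5.28 against 6.06. PARP14 was at 21.7 and 18.0 FPKM against 23.6. The median log2 ratio of the analysed signalling genes was -0.04 in the co-depletion, or 0.02 after rescaling by the median ratio of all genes, and -0.17 in the FoxO3 depletion. After adjustment for GC content it was 0.22 in the co-depletion and 0.07 in the FoxO3 depletion. Effectors had 0.29 and 0.16, and 0.37 and 0.25 after adjustment. Whether the roles differ was not tested, since members are not replicates.

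The direct comparison of the co-depletion with the FoxO3 depletion does not use the control library and gave the most uniform result. Of 40 members 36 were higher in the co-depletion, with a median log2 ratio of 0.19, where 56.4% of all analysed genes were higher and their median was 0.03. Differences were small. At 1.5-fold 2 members were higher, OAS1 and SAMD9, where 1.35% of all genes were, and 0 were lower, where 0.617% were. The exact 95% counting interval of the ratio lay wholly above 1 for 22 members, where this held for 13.2% of genes, and wholly below 1 for 0, where this held for 8.64%. These shares grow with read number, and the members' reads run from 10 to 4370 per library. OAS1 had a ratio of 1.79 (1.33 to 2.43), SAMD9 1.71 (1.49 to 1.96), IFI27 1.49 (1.3 to 1.71), SAMD9L 1.47 (1.3 to 1.66) and ISG20 1.45 (1.21 to 1.73). IFIT2 had 1.27 (1.21 to 1.34) and IFIH1 1.32 (1.11 to 1.57). The members not higher in the co-depletion were IFI35, ISG15, MX1 and MX2, with ratios of 0.97 (0.82 to 1.16), 0.98 (0.93 to 1.03), 0.90 (0.77 to 1.05) and 0.96 (0.70 to 1.32). After rescaling by the median ratio or to TPM, 35 members were higher, and after adjustment for GC content 33.

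**Figure D3:**
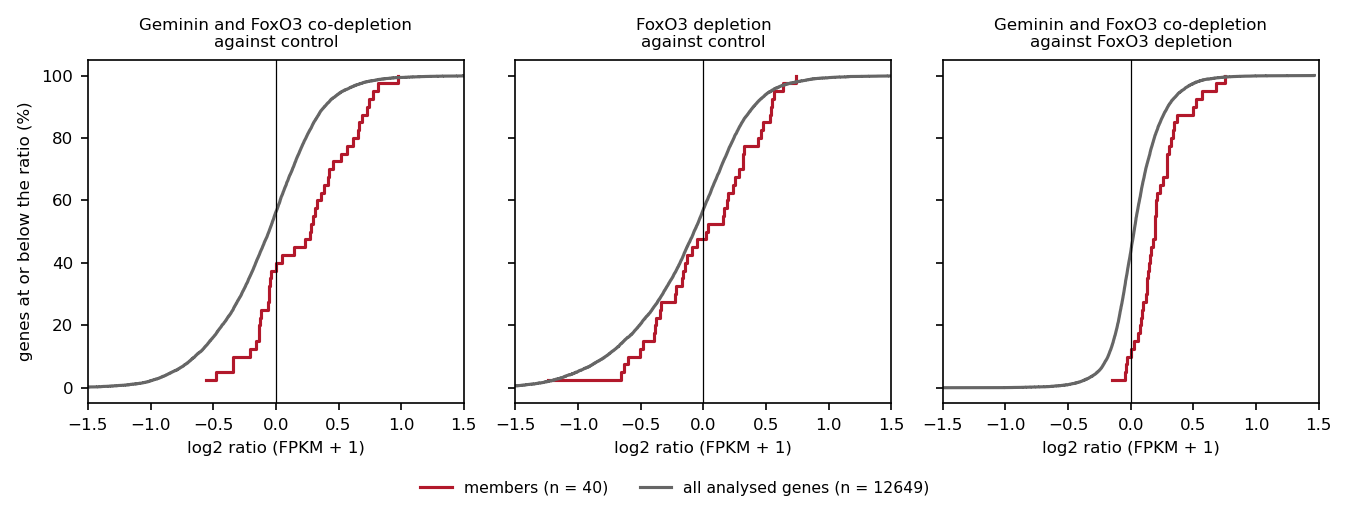
Cumulative share of genes (vertical, %) at or below each log2 ratio on the FPKM + 1 scale (horizontal), for 40 members and for all 12649 analysed genes, which include them. In the co-depletion against the FoxO3 depletion the members' curve lies to the right of that of all genes, with medians of 0.19 and 0.03, and in the FoxO3 depletion against the control the medians are 0.03 and -0.07.

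The ratios to the control went with the GC content of the transcripts. Across all 41 members, IRF9 included here, which share the same libraries and control, Spearman's rho between GC content and log2 ratio was 0.42 in the co-depletion and 0.49 in the FoxO3 depletion, and over all analysed genes it was 0.42 and 0.39. Of the 20 members below the median GC content of all genes (49.7%), 9 were above the control in the co-depletion and 8 in the FoxO3 depletion. Of the 21 members at or above it, 16 and 14 were. SAMD9 and SAMD9L, at 36.1% and 39.5% GC, had log2 ratios of -1.24 and -0.66 in the FoxO3 depletion, which were -0.46 and -0.09 after the median ratio at their GC content was subtracted. In the co-depletion the ratio of SAMD9 went from -0.56 to -0.01 and that of SAMD9L from -0.14 to 0.31. EIF2AK2 (40.8% GC) moved in the same way, to -0.09 in the co-depletion and -0.12 in the FoxO3 depletion, and DDX58 (40.2% GC) to 0.05 in the co-depletion and 0.02 in the FoxO3 depletion. XAF1, at 51.8% GC, had -0.64 before and -0.70 after in the FoxO3 depletion. IFIT1 and IFIT2, also poor in GC, had 0.54 and 0.32 in the FoxO3 depletion and 0.96 and 0.68 after adjustment. The adjusted median over members was 0.32 in the co-depletion and 0.18 in the FoxO3 depletion. After adjustment 9 members were higher at 1.5-fold in the co-depletion, where 4.62% of all genes were, and 0 lower, where 6.14% were. In the FoxO3 depletion 4 were higher, where 5.85% of all genes were, and 2 lower, where 9.37% were. Of the 40 members, 9 turned from below to above the control in the co-depletion and 1 the other way, while 7 and 0 did so in the FoxO3 depletion. Against the FoxO3 depletion, all 20 members below the median GC content were higher in the co-depletion, and 16 of the 21 others were. The part of GC content in these results was not tested.

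**Figure D4:**
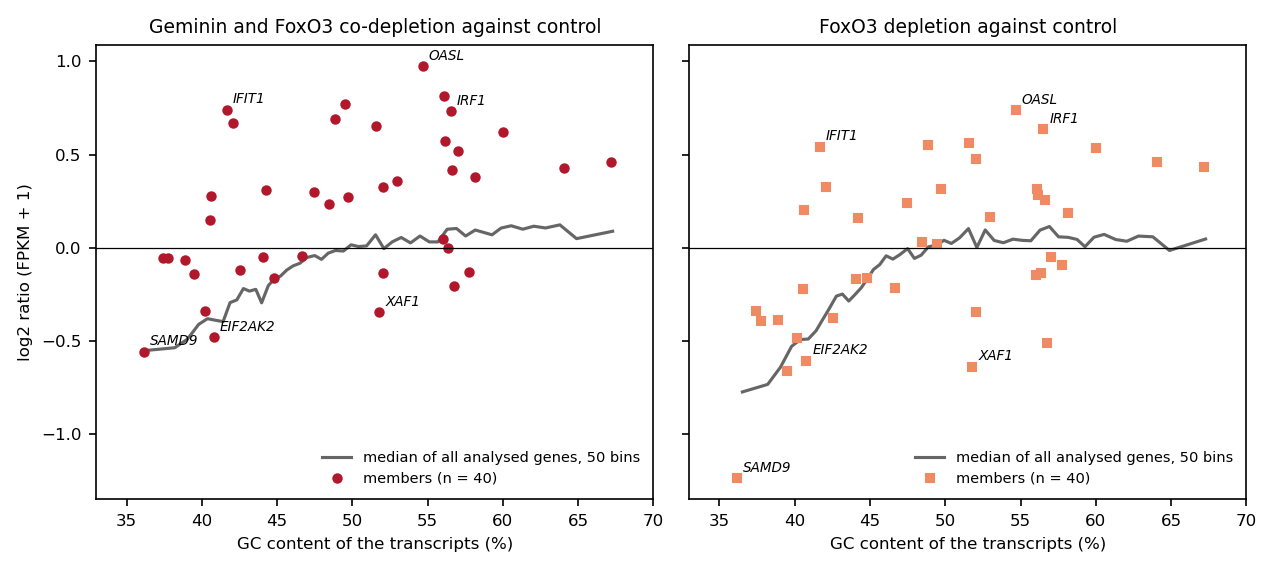
log2 ratio to the control on the FPKM + 1 scale (vertical) against mean GC content of a gene's transcripts (%, horizontal) for 40 members, in the co-depletion (left) and the FoxO3 depletion (right). The line is the median of all analysed genes in 50 bins of GC. SAMD9 and EIF2AK2 lie at the GC-poor end where the line is below 0, while IFIT1 lies well above the line and XAF1 below it.

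The other genes of the pathway were taken from lists given by name and counted at 1.5-fold on the FPKM + 1 scale. Their counts stand against 4.02% of all genes higher and 12.3% lower in the co-depletion and 4% and 16.7% in the FoxO3 depletion. Of 10 interferon receptor and proximal kinase genes, 1 was higher than the control at 1.5-fold in the co-depletion and 0 lower, and in the FoxO3 depletion 0 were higher and 1 lower. IL10RB, a subunit of the IFNL receptor, was the higher gene, at 15.6 FPKM in the co-depletion and 14.7 in the FoxO3 depletion, against 9.66 in the control. JAK2 was the lower gene, at 3.46 and 2.59 FPKM against 5.55, and its log2 ratio in the FoxO3 depletion was -0.87, or -0.53 after adjustment for GC content, short of 1.5-fold. After adjustment IL10RB passed 1.5-fold in both. IFNAR1 was at 40.5 and 39.4 FPKM against 39.6.

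Of 12 adaptors and kinases of nucleic acid sensing 11 were analysed, and of these 0 were higher and 1 lower in the co-depletion, while 0 were higher and 3 lower in the FoxO3 depletion. After adjustment for GC content the lower genes were 0 in the co-depletion and 1, IFI16, in the FoxO3 depletion. IFI16, a sensor of DNA, was at 25.2 FPKM in the co-depletion and 18.9 in the FoxO3 depletion, against 48.6 in the control. TBK1 was at 23.9 and 17.5 FPKM against 32.6, and TLR3, the endosomal sensor of double-stranded RNA, at 1.86 and 1.20 against 2.77. MAVS and STING (TMEM173) were near the control, at 62.5 and 58.2 FPKM against 54.2 and at 52.0 and 50.03 against 49.1. Among 6 feedback inhibitors 1 was higher and 1 lower in each comparison. SOCS3 was the higher, at 64.4 FPKM in the co-depletion and 75.0 in the FoxO3 depletion, against 40.3 in the control, and PIAS1 the lower, at 12.9 and 9.92 against 19.9. Neither passed 1.5-fold in the co-depletion after adjustment for GC content, at log2 ratios of 0.57 and -0.36.

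A further 41 interferon-stimulated genes were listed and 38 analysed. In the co-depletion 2 were higher and 3 lower at 1.5-fold, with a median log2 ratio of 0.17, and in the FoxO3 depletion 2 were higher and 4 lower, with a median of 0.03. After adjustment for GC content 5 were higher and 0 lower in the co-depletion, and 3 higher and 1 lower in the FoxO3 depletion. Before it, the higher genes were EPSTI1 and TAP1 in each comparison, which share the control. EPSTI1 was at 5.43 FPKM in the co-depletion and 7.57 in the FoxO3 depletion, against 2.90 in the control. Among the lower genes, DDX60, a helicase that assists RIG-I, was at 22.0 and 14.8 FPKM against 37.7. Its log2 ratio in the co-depletion was -0.75, and -0.21 after adjustment. GBP2 was at 8.12 and 6.99 FPKM against 13.5 and the nuclear body protein SP100 at 25.2 and 21.1 against 38.6. UBA7 was at 24.0 and 15.2 FPKM against 26.3, lower at 1.5-fold in the FoxO3 depletion alone. It was the gene still lower there after adjustment, at -0.81, while DDX60, GBP2 and SP100 fell short at -0.54, -0.58 and -0.56. Against the FoxO3 depletion, 32 of the 38 were higher in the co-depletion, with a median of 0.13. Of the interferon-induced chemokines, CXCL10, a ligand of CXCR3, was at 8.27 FPKM in the co-depletion and 4.91 in the FoxO3 depletion, against 0.41 in the control, where it rested on 7 reads. CXCL11 was at 4.81 FPKM in the co-depletion and 2.98 in the FoxO3 depletion, against 2.32 in the control, and CXCL9 was listed at 0 in all 3.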

How the data were processed

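Per the labels' protocols, 3 ug of total RNA went into each TruSeq library. The authors deposited FPKM per Ensembl gene, 1 table per library. TopHat2 2.0.9 is named in the submitters' processing notes; how FPKM were computed, on which build and annotation, and whether by strand, is not given in the sources. Groups were read from abbreviated titles with the series' design text and checked on FOXO3 and GMNN.

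The members and gene lists were chosen with earlier results of these data known. GENCODE 29 supplied symbols, lengths and GC content and named 45342 of 48162 genes, and 4 of the listed pathway and marker genes had no match and are not analysed here. Some listed genes are not reported here. FPKM are whole reads times a step, so each library's total was taken from the commonest product of FPKM and length among genes with 1 transcript. The smallest whole reads, within a relative tolerance of 1e-08, were found for 97.1% of the 20591 genes detected in 2 or more libraries and for all 41 members, but for 0.35% of 2000 genes whose values were changed at random. They were multiplied by up to 4 where that made the implied length whole, and a shared divisor may still be missing from them. Ratios between libraries do not depend on the length, levels of different genes do.

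Ratios are log2 of (FPKM + 1) over (FPKM + 1), a scale that understates differences of low genes, for 12649 named genes with a mean of at least 1 FPKM. Genes were called by size at 1.5-fold on this scale, not by the plain FPKM ratio. FPKM ratios carry exact 95% Clopper-Pearson intervals, which cover counting error between 2 libraries only. The GC adjustment subtracts the median ratio over 50 bins of GC content. The steps were tested on simulated data. All members are named; from each other list the 4 genes with the largest ratios to the control, and always IFNB1 and CXCL10, with a few added by role after their values were seen. Other settings tried were pseudocounts, minimum FPKM, rescaling, size rules and protein-coding genes alone. Python 3.11.15, numpy 2.4.6, pandas 2.3.3, scipy 1.17.1 and matplotlib 3.10.9 were used.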

Additional observations from a re-analysis of the deposited data

How the results depend on the processing

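In the FoxO3 depletion against the control, the 2 members higher at 1.5-fold became 4 with a pseudocount of 0.1, 6 after rescaling by the median ratio, 4 after GC adjustment, 10 at a log2 ratio of 0.32 and 0 at 2-fold. The 4 lower became 1 after rescaling by the median ratio, 2 after GC adjustment, 11 at a log2 ratio of 0.32 and 1 at 2-fold. In the co-depletion against the control, the 9 higher became 17 at a log2 ratio of 0.32 and 0 at 2-fold, and the 0 lower became 1 with a pseudocount of 0.1, 1 after rescaling to TPM and 4 at a log2 ratio of 0.32. In the co-depletion against the FoxO3 depletion, the 2 higher became 9 at a log2 ratio of 0.32, 0 at 2-fold and 1 after GC adjustment, where OAS1 remained. The cause was not tested, except that the size rules change the counts by construction. After GC adjustment 8 of the 9 members higher in the co-depletion against the control kept their call, IFITM3 being the exception, and HERC5 joined them. Over the members' ratios in the 3 comparisons, GC adjustment moved 32 of 120 beyond their counting interval and rescaling by the median ratio 6, and no called ratio changed sign under any of the settings tried. Assigning OAS1, OAS2 and OAS3 to the effectors left the RLR helicases and PKR with a median log2 ratio of -0.10 in the co-depletion and -0.35 in the FoxO3 depletion against the control. No paired analysis was possible because each group has 1 library, and none could be left out. Read number limits IRF9, IFI44L, CMPK2 and MX2, whose intervals included 1 in each comparison.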

Other observations

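Genes of antigen presentation by MHC class I are also interferon-stimulated, and 8 of the listed genes take part in it. These were picked after their values were seen, and their values are given as a description. TAP1, a subunit of the peptide transporter, was at 87.0 FPKM in the co-depletion and 81.0 in the FoxO3 depletion, against 43.9 in the control, with an FPKM ratio of 1.98 (95% counting interval 1.85 to 2.12) in the co-depletion and 1.84 in the FoxO3 depletion. Its partner TAP2 was at 53.9 and 51.3 FPKM against 40.4. The immunoproteasome subunits PSMB8, PSMB9 and PSMB10 were at 73.9 and 73.2 FPKM against 57.9, at 56.6 and 48.0 against 40.6, and at 13.1 and 10.8 against 10.6. The proteasome activator subunits PSME1 and PSME2 were at 182.0 and 177.4 FPKM against 148.2 and at 192.7 and 177.4 against 139.2. B2M, the light chain of MHC class I, was at 795.4 and 747.8 FPKM against 690.2. The control library was the lowest for each of the 8 genes, a count that shows little because they were picked with their values known. The PSMB10 intervals included 1, at 0.96 to 1.59 in the co-depletion and 0.78 to 1.34 in the FoxO3 depletion. NLRC5, a transactivator of MHC class I genes, is on the same list but not among the 8, and its control level was the highest. It was at 13.6 FPKM in the co-depletion and 12.6 in the FoxO3 depletion, against 14.2 in the control.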
